A study of Mus musculus with 6 samples.

Results

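The integrated stress response genes centred on Atf4 were followed in RNA from mouse colon organoids, as a group of 44 genes among the 25067 rows of the deposited values. The members are rows with named symbols, and they were chosen with earlier values of the same comparison in view. Folds and calls of the members between the 2 groups are therefore given as a description, and nothing is supported with them. For this report the members were sorted by role into 7 stress transcription factors, 9 stress effectors and feedback genes, 10 enzymes of amino acid synthesis, 4 mitochondrial one-carbon enzymes, 9 amino acid transporters, and 5 genes for eIF2 and its kinases.

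The organoids were grown from colonic crypts of C57BL/6 mice aged 8 weeks that carried floxed alleles of both atypical protein kinase C genes and an inducible recombinase (Prkcif/fPrkczf/f;Villin-CreERT2). Villin-CreERT2 is expressed in intestinal epithelial cells, and its Cre enters the nucleus once 4-OH-Tamoxifen is given. After passage the organoids were kept for 3 days in medium with WNT3A, EGF, Noggin and R-spondin 1, and each group, 4-OH-Tamoxifen or vehicle (ethanol), has 3 libraries. All 6 libraries share the floxed genotype and the Cre transgene. The vehicle libraries, which the labels also describe as wild type, are controls not given 4-OH-Tamoxifen. Deletion of the floxed alleles was not measured here in either group. The effects of 4-OH-Tamoxifen, of active Cre and of losing Prkci and Prkcz cannot be told apart. The labels do not say whether replicates came from separate mice or cultures, so p-values measure the spread between these libraries, which may be technical.

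The integrated stress response starts with 4 kinases that phosphorylate eIF2, the factor that brings the initiator tRNA to the ribosome. Phosphorylated eIF2 lowers translation in general but raises translation of the Atf4 mRNA, and ATF4 protein then switches on genes for amino acid uptake, serine and glycine synthesis, mitochondrial folate metabolism and tRNA charging. Prolonged activation adds CHOP, the product of Ddit3, which is linked to cell death. ATF4 is controlled mainly at translation and binds DNA together with C/EBP proteins, so its mRNA level is not a readout of the protein.

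Of the 44 members, 37 were lower and 2 higher in 4-OH-Tamoxifen organoids, and 5 were not called. A call is an adjusted p-value under 0.05 in a limma fit over 13210 genes, of which 21.0% were called lower and 22.7% higher. All 44 members passed the filter of that fit (a mean normalized count of at least 10). The members had a median log2 fold change of -0.71, against -0.01 over all tested genes. Of the members, 28 were called lower with a fall of more than 0.5, as were 7.51% of all tested genes. In 37 members the 3 values with 4-OH-Tamoxifen all lay below the 3 vehicle values, as they did for 25.3% of the tested genes. Because the members were chosen with such falls in view, these shares describe the list and no more. RNA from whole organoids does not tell fewer cells of a type from less RNA per cell.

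**Figure D1:**
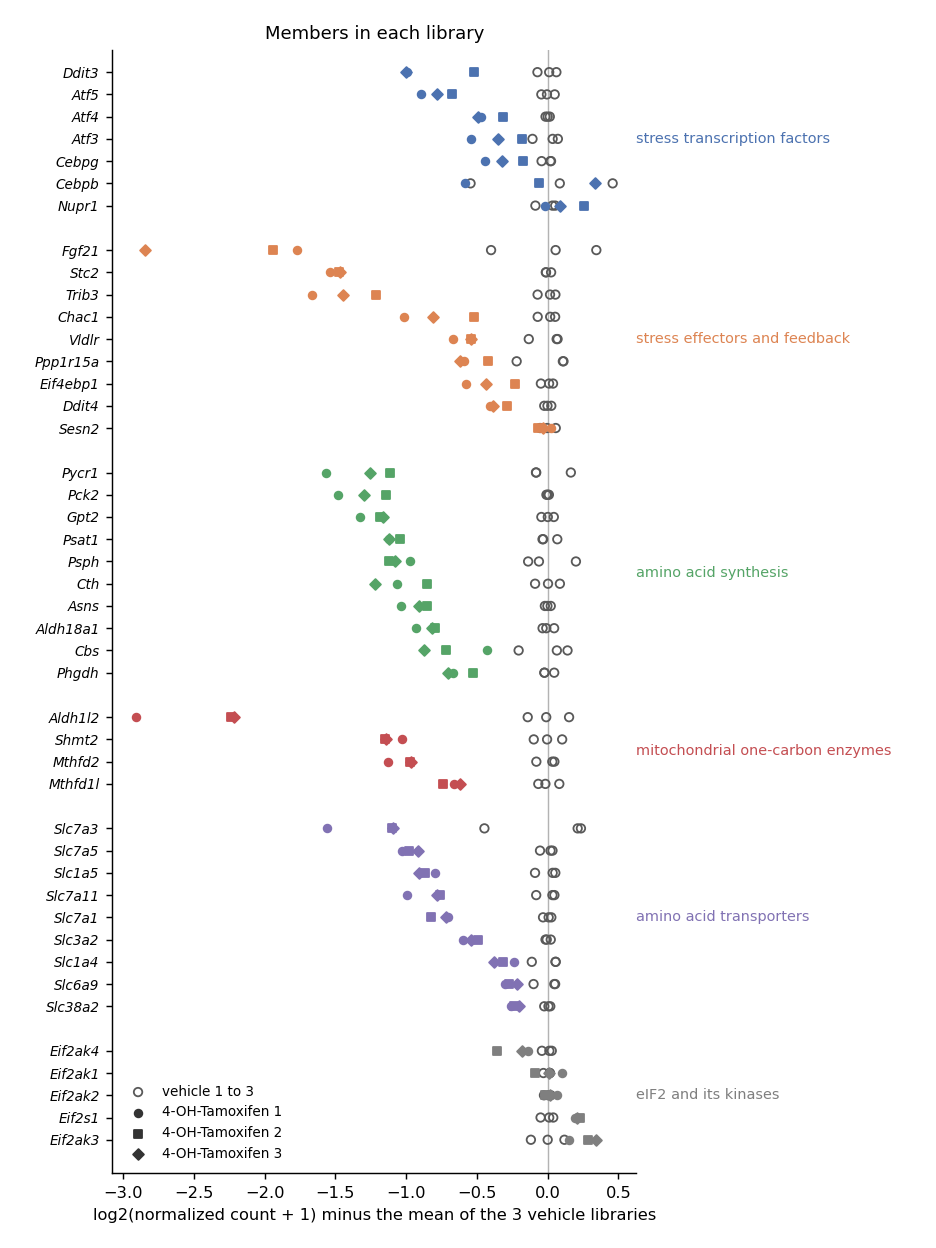
Each row is 1 member, grouped and coloured by arm. The x axis gives log2(normalized count + 1) minus the mean of the vehicle libraries, with open circles for vehicle and a filled circle, square and diamond for 4-OH-Tamoxifen replicates 1, 2 and 3. Filled symbols lie left of every open circle in 37 rows and right of every open circle in 2 (Eif2ak3 and Eif2s1).

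The arms had different medians, which were -1.06 for the 4 mitochondrial one-carbon enzymes, -1.05 for the 10 enzymes of amino acid synthesis, -0.75 for the 9 transporters, -0.58 for the 9 effectors and feedback genes, -0.36 for the 7 transcription factors and 0.02 for the 5 genes of eIF2 and its kinases. Every member was called lower in the arms of synthesis (10 of 10), one-carbon enzymes (4 of 4) and transport (9 of 9), as were 8 of 9 effectors and 5 of 7 transcription factors. In the eIF2 arm 1 gene was called lower and 2 higher. The 25th and 75th percentiles of all tested genes were -0.22 and 0.20, and 22 members were below the 5th percentile of all tested genes, -0.70.

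**Figure D2:**
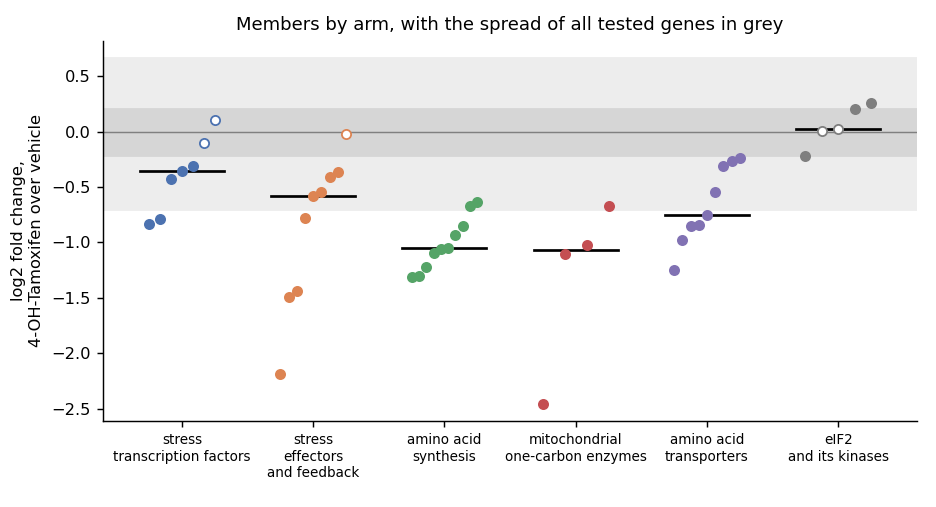
Log2 fold change of each member (y axis), 4-OH-Tamoxifen over vehicle, by arm. Filled points were called and open points were not, black bars are arm medians, the dark grey band runs from the 25th to the 75th percentile of all tested genes and the light band from the 5th to the 95th. All synthesis and one-carbon enzymes lie below the dark band, and the eIF2 arm lies within the light one.

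ATF4 binds a composite C/EBP and ATF response element (CARE), and the promoters of the members were searched for it. The members were listed as genes of the ATF4 response, some of them reported ATF4 targets. A share of CARE above that of all genes could therefore follow from how the list was made, and the shares below were not tested. RefSeq promoter windows of 300 bases (250 before and 50 after the start site, build GRCm38.p6) were matched for 38 of the 44 members. The CARE core TGATGNAA, on either strand, was found in the windows of 11 of these 38 members (28.9%), against 4.51% of the 27025 genes with a window and 3.97% of all 32851 windows. The CRE motif TGACGTCA, which other ATF and CREB proteins bind, was found in 1 member (Ppp1r15a) and in 2.03% of all genes, and the endoplasmic reticulum stress element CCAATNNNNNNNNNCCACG in 0 members and 0.137% of genes. CARE and CRE differ in fixed letters, so 1 stretch of 8 bases cannot match both, while CARE could lie within the free letters of the third motif. By arm, CARE was found in 4 of 8 effectors, 3 of 9 synthesis enzymes, 2 of 6 transporters, 2 of 7 transcription factors, 0 of 3 one-carbon enzymes and 0 of 5 genes of the eIF2 arm.

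The 250 bases before the start site are shown for Asns and Pck2, enzymes of the synthesis arm with 1 match each, and for Slc7a11, the member with 2 matches. Capitals mark the CARE core, and the sequence is written 5′ to 3′ on the strand of the gene.
Asns, chr6:7693210-7693459, minus strand: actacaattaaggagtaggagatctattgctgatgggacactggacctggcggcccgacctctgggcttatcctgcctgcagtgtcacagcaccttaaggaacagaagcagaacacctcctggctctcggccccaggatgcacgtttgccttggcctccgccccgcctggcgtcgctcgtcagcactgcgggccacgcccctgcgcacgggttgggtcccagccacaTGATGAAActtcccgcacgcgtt
Pck2, chr14:55540016-55540265, plus strand: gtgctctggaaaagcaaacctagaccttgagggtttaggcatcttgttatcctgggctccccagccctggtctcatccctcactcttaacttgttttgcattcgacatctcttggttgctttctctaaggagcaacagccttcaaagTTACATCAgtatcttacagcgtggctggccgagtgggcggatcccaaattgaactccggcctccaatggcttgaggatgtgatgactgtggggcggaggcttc
Slc7a11, chr3:50443614-50443863, minus strand: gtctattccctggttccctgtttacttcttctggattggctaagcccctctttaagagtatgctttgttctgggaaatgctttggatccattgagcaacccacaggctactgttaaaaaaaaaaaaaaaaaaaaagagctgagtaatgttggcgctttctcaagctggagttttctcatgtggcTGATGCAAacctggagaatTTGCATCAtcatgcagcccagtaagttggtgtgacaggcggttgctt

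For the other 8 members with a match, 30 bases around the core are shown so that the cores can be compared. In Trib3 the core begins 15 bases after the start site and in Slc1a4 it begins 4 bases before it.
Atf3, chr1:191183425-191183454, minus strand: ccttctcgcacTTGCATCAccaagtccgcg
Chac1, chr2:119351038-119351067, plus strand: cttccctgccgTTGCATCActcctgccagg
Fgf21, chr7:45615611-45615640, minus strand: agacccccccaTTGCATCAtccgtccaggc
Nupr1, chr7:126625562-126625591, minus strand: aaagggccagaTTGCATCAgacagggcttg
Pycr1, chr11:120643833-120643862, minus strand: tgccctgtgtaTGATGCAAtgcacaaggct
Slc1a4, chr11:20332699-20332728, minus strand: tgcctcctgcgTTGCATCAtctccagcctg
Trib3, chr2:152344028-152344057, minus strand: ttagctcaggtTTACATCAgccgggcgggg
Vldlr, chr19:27216809-27216838, plus strand: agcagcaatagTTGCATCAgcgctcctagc

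Of the 11 members with the core, 10 were called lower and the median log2 fold change was -0.85. Of the 27 members whose windows lack it, 21 were called lower and the median was -0.54. These 27 include all 5 members of the eIF2 arm, and outside that arm 20 of 22 without the core were called lower, with a median of -0.67. The split uses the values by which the members were chosen and was not tested. Nupr1 carries the core 110 bases before its start site and was not called, while Stc2, Psat1 and Shmt2 fell by more than 1 on the log2 scale with no match in these windows. A match gives the letters only, not binding, and sites farther from the start, such as those in introns, were outside the windows. Atf4, Cebpb and Cebpg had no match in their own windows.

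**Figure D3:**
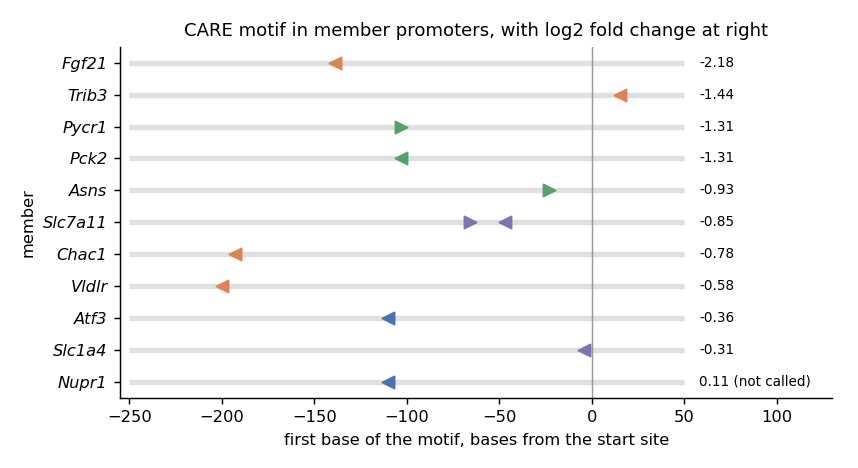
Position of the CARE core in the promoter windows of the 11 members that hold it. The x axis gives bases from the start site, arrowheads point right when the core is on the strand of the gene, grey bars show the window, and the log2 fold change stands at the right. The matches begin between 200 bases before and 15 bases after the start site.

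Among the transcription factors, Atf4 itself was lower. Its normalized counts were 9113, 9020 and 9208 in vehicle replicates 1, 2 and 3 and 6574, 7311 and 6493 with 4-OH-Tamoxifen, so the groups did not overlap and replicate 2 was the highest of the treated libraries. This is 74.5% of the vehicle mean, with a log2 fold change of -0.43 (SE 0.05). The larger falls in this arm were those of Ddit3 (-0.84, SE 0.12), which encodes CHOP, and Atf5 (-0.79, SE 0.06), whose mRNA is translated under stress in the way of Atf4. Smaller falls were seen in Atf3 (-0.36, SE 0.08), an early stress factor, and Cebpg (-0.31, SE 0.06), a dimer partner of ATF4. Cebpb, a second C/EBP protein, ranged from 70.2 to 142 in vehicle and from 68.2 to 130 in 4-OH-Tamoxifen libraries and was not called (-0.11, SE 0.23). Nupr1, a small stress-induced nuclear protein, ranged from 6926 to 7632 and from 7243 to 8783 and was not called either (0.11, SE 0.06). Without 4-OH-Tamoxifen replicate 1 Nupr1 was called higher (0.17).

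The effectors and feedback genes held falls of very different size. Fgf21, a secreted metabolic hormone and a classical ATF4 target, had normalized counts of 39.2, 31.9 and 23.0 in vehicle and 8.26, 7.26 and 3.42 in 4-OH-Tamoxifen libraries. These rest on 42, 45 and 19 reads and on 8, 7 and 3 reads, so its log2 fold change of -2.18 (SE 0.41) is the least precise in the arm, and with a pseudocount of 10 it was -1.34. Stc2, a secreted glycoprotein, went from 4097, 4100 and 4203 to 1422, 1486 and 1497, or to 35.5% of the vehicle mean (-1.49, SE 0.05). The treated libraries of Stc2 lay close together and none came near a vehicle library. Trib3, a pseudokinase that dampens ATF4 and AKT, went from 1696, 1652 and 1554 to 516, 703 and 600 (-1.44, SE 0.08). Replicate 2 kept the highest value of the 3 treated libraries here too.

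Chac1, which breaks down glutathione, was called lower at -0.78 (SE 0.09), and Vldlr, a lipoprotein receptor and reported ATF4 target, at -0.58 (SE 0.06). Ppp1r15a encodes GADD34, the phosphatase subunit that reverses eIF2 phosphorylation, and was lower by a log2 fold change of -0.54 (SE 0.08). Eif4ebp1, a repressor of cap-dependent translation (-0.41, SE 0.06), and Ddit4, an inhibitor of mTORC1 (-0.36, SE 0.04), were lower as well. Sesn2, a leucine sensor that also restrains mTORC1, was the exception. It ranged from 1059 to 1144 in vehicle and from 1049 to 1118 in 4-OH-Tamoxifen libraries, and its log2 fold change of -0.03 had a 95% interval from -0.15 to 0.10.

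All 10 enzymes of amino acid synthesis were lower, between -1.31 and -0.63. In the serine pathway, Phgdh, the first enzyme, fell least (-0.63, SE 0.05). Psat1, the transaminase that follows it, went from 6462, 6483 and 6947 to 3049, 3217 and 3050 (-1.09, SE 0.05). Psph, the last step, went from 954, 905 and 1144 to 507, 458 and 471 (-1.06, SE 0.08). In both genes the treated libraries sat close together, at 46.8% (Psat1) and 47.8% (Psph) of the vehicle mean, and in Psph the vehicle libraries varied more than the treated ones.

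In proline synthesis, Pycr1, the mitochondrial reductase of the last step, went from 696, 587 and 587 to 209, 287 and 260 (-1.31, SE 0.11). Aldh18a1, the enzyme that starts proline synthesis from glutamate, was lower by less (-0.85, SE 0.05). Gpt2, the mitochondrial alanine transaminase, went from 979, 921 and 950 to 378, 418 and 423 (-1.22, SE 0.07). Pck2, the mitochondrial phosphoenolpyruvate carboxykinase, went from 3787, 3742 and 3765 to 1350, 1703 and 1534 (-1.31, SE 0.06). The vehicle values of Pck2 lay close together, whereas its treated libraries spread more widely with replicate 2 highest.

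Asns, the asparagine synthetase whose promoter served to define amino acid response elements, ranged from 6010 to 6185 in vehicle and from 2966 to 3369 in treated libraries (-0.93, SE 0.05). Cth, the enzyme that makes cysteine from cystathionine, went from 1084, 1023 and 960 to 487, 564 and 438 (-1.05, SE 0.08). Cbs, which makes the cystathionine, was lower by less (-0.67, SE 0.12), and its highest treated value, 276, lay under its lowest vehicle value, 323.

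The 4 mitochondrial one-carbon enzymes, which act on serine or on carbon bound to folate, were all lower. Aldh1l2, which oxidises formyl-folate in mitochondria and yields NADPH, went from 971, 868 and 793 to 116, 185 and 188. That is 18.5% of the vehicle mean (-2.45, SE 0.14), and 3 of the 13210 tested genes had a lower log2 fold change. Shmt2, which splits serine into glycine and a folate-bound carbon, went from 6572, 6157 and 7075 to 3234, 2967 and 2990 (-1.11, SE 0.05). Mthfd2, the dehydrogenase that follows, went from 2735, 2503 and 2707 to 1210, 1345 and 1353 (-1.02, SE 0.06). Mthfd1l, which releases formate, was lower by less (-0.67, SE 0.05). No treated library of these genes reached a vehicle library.

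Several of these enzymes have an isozyme outside the members, and the pairs below were put together after the values were seen. Shmt1, the cytosolic form of Shmt2, was lower (-0.47, SE 0.07), and so was Mthfd1 (-0.45, SE 0.06), the cytosolic counterpart of Mthfd1l. Aldh1l1, the cytosolic form of Aldh1l2, was not called (0.14, SE 0.06), nor was Gpt, the cytosolic alanine transaminase (-0.11, SE 0.17). Mthfd2l, a mitochondrial isozyme of Mthfd2, was higher (0.56, SE 0.13). A ratio of 2 genes within a library depends little on how libraries were scaled, only through the 1 added to each normalized count. The log2 ratio of Aldh1l2 to Aldh1l1 was between -0.16 and 0.19 in vehicle and between -2.96 and -2.31 in treated libraries. For Mthfd2 to Mthfd2l it was between 3.82 and 3.99 and between 2.08 and 2.69. In these 5 isozyme pairs the ratios of the 2 groups did not overlap and were lower with 4-OH-Tamoxifen, with the smallest shift for Mthfd1l to Mthfd1 (-0.22). No test of these ratios was made, since the member of each pair was chosen with its fall in view.

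**Figure D4:**
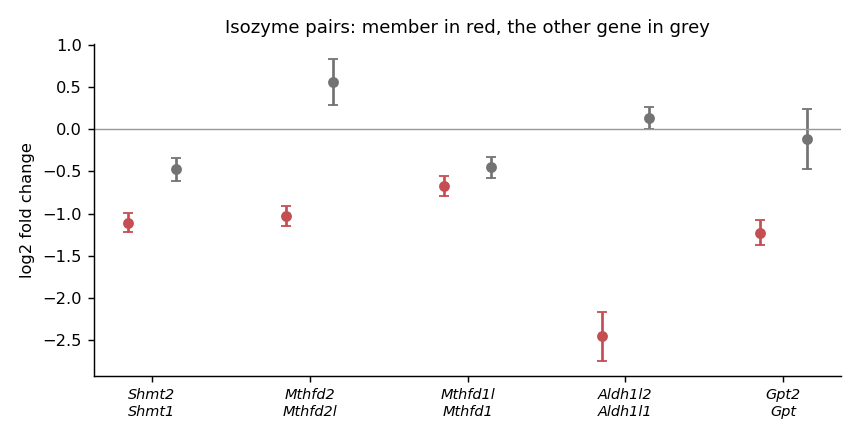
Log2 fold change (y axis) with 95% intervals from the limma fit for 5 members (red) and an isozyme outside the members (grey). Members lie lower in each pair, and the interval of Mthfd2l lies above 0.

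All 9 amino acid transporters were called lower, over a range from -1.25 to -0.23. Slc7a3, a carrier of cationic amino acids with low counts, went from 94.2, 95.8 and 59.3 to 26.9, 37.3 and 37.6 (-1.25, SE 0.23). Slc7a1, the carrier of the same substrates with far more reads here, was lower by -0.75 on the log2 scale (SE 0.05). Slc7a5 and Slc7a11 import leucine-type amino acids and cystine, and each must pair with the heavy chain encoded by Slc3a2 to reach the membrane. Slc7a5 (-0.97, SE 0.05) and Slc7a11 (-0.85, SE 0.06) were lower by more than Slc3a2 (-0.54, SE 0.04). The log2 ratio of Slc7a5 to Slc3a2 lay between -0.48 and -0.40 in vehicle and between -0.92 and -0.81 in treated libraries, while the ratio of Slc7a11 to Slc7a5 overlapped between the groups.

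The remaining 4 members of the arm carry neutral amino acids. Slc1a5, a glutamine and alanine exchanger, was lower (-0.86, SE 0.05). Slc1a4, its close relative, had -0.31 (SE 0.05), Slc6a9, a glycine carrier, -0.26 (SE 0.07) and Slc38a2, a starvation-induced neutral carrier, -0.23 (SE 0.04). For Slc38a2 the values ranged from 6299 to 6488 in vehicle and from 5344 to 5570 in treated libraries, without overlap.

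The genes of the 4 kinases at the head of the pathway had log2 fold changes between -0.22 and 0.26. Eif2ak1, which encodes the heme-regulated kinase HRI, had 910, 909 and 881 in vehicle and 964, 847 and 906 in treated libraries (0.01, 95% interval -0.13 to 0.14). Eif2ak2, which encodes PKR, the kinase for double-stranded RNA, had 965, 997 and 985 and then 1028, 971 and 993 (0.02, 95% interval -0.10 to 0.14). In both genes the groups overlapped.

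Eif2ak3, which encodes PERK, the kinase of the endoplasmic reticulum, was higher, with 970, 894 and 823 in vehicle and 991, 1087 and 1135 in treated libraries (0.26, SE 0.07). Eif2ak4, which encodes GCN2, the sensor of uncharged tRNA, was lower, with 595, 602 and 574 against 536, 461 and 521 (-0.22, SE 0.08). Eif2s1, the eIF2 subunit that the kinases phosphorylate, was higher (0.21, SE 0.05). The call of Eif2ak4 was lost without vehicle replicate 1 (-0.22), vehicle replicate 2 (-0.21) or 4-OH-Tamoxifen replicate 2 (-0.16), and with 4-OH-Tamoxifen replicate 1 as the only treated library (-0.14). With that library alone the call of Eif2ak3 was also lost (0.15).

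The treated libraries were not equally low. Replicate 2 had the highest of the 3 treated values in 21 of the 44 members (47.7%), among them 6 of 7 transcription factors and 7 of 10 synthesis enzymes, and replicate 1 had the lowest in 27 of 44. Over all 2768 genes called lower, replicate 2 was highest in 720 and replicate 1 lowest in 678, and these differences were not tested. The median of the members relative to the vehicle mean was -0.69, -0.61 and -0.75 in replicates 1, 2 and 3. In the transcription factor arm it was -0.54, -0.18 and -0.35.

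Further genes of the pathway were listed by role, with earlier results of these data known. Most of those named below were picked as the called genes with the largest change, so their adjusted p-values are given as a description. Of all tested genes, 43.6% were called in either direction. Of 15 genes for other eIF2 and eIF2B subunits, kinase partners and the eIF2 phosphatase, 2 were higher and 2 lower. Dele1, which relays mitochondrial stress to HRI (-0.38, SE 0.07, limma adjusted p = 1.8e-04), and Gcn1, the partner of GCN2 (-0.32, SE 0.05, adjusted p = 3.0e-05), were lower. Eif2b2, a subunit of the eIF2 exchange factor, was higher (0.35, SE 0.05, adjusted p = 9.6e-06).

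Among 26 tested enzymes of amino acid and folate metabolism that are not members (27 listed), 11 were lower, 7 higher and 8 not called. Mtr, the methionine synthase, was lower (-0.56, SE 0.08, limma adjusted p = 1.4e-05), as was Amt, of glycine cleavage (-0.57, SE 0.19, adjusted p = 0.021). The call of Amt was lost without vehicle replicate 1 (-0.40), 4-OH-Tamoxifen replicate 1 (-0.50) or 4-OH-Tamoxifen replicate 2 (-0.50), and with 4-OH-Tamoxifen replicate 1 alone (-0.71). Among the 7 higher genes were Glul (0.29) and Glud1 (0.25), of glutamine and glutamate metabolism, which are named here after their values were seen. Of 15 tested transporters (24 listed), 2 were lower and 4 higher. Slc38a1, a glutamine carrier, was lower (-0.72, SE 0.05, adjusted p = 4.4e-10), as was Slc43a1, a leucine carrier (-1.15, SE 0.23, adjusted p = 4.0e-04), while Slc6a14, a broad carrier of neutral and cationic amino acids, was higher (0.95, SE 0.12, adjusted p = 3.0e-06).

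The 23 tested genes of a list of further reported ATF4 and CHOP targets (24 listed) divided, with 14 lower, 7 higher and 2 not called. Lower were 9 of the 10 aminoacyl-tRNA synthetases on it, counted apart after their values were seen, with Yars at the low end (-0.70, SE 0.05, limma adjusted p = 1.6e-09), while Wars was not called (-0.02). Ero1a, an oxidase of protein folding that hypoxia also induces, was lower by the most (-1.43, SE 0.09, adjusted p = 1.1e-10). Bbc3, which encodes the pro-apoptotic protein PUMA, was higher (0.66, SE 0.07, adjusted p = 5.2e-07). So were Bcl2l11 (0.40) and Tnfrsf10b (0.46), 2 further cell death genes named after their values were seen. The rest of the 7 higher genes were Map1lc3b (0.43), Klhl24 (0.34), Gadd45a (0.31) and Gdf15 (0.25).

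**Figure D5:**
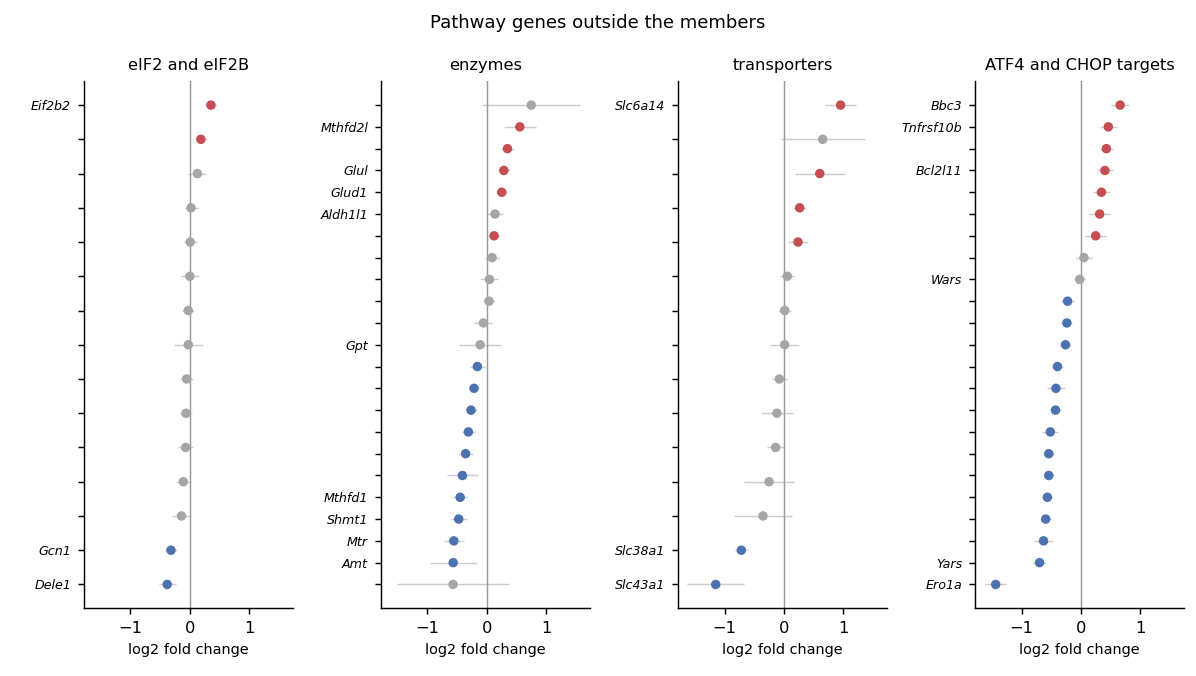
Log2 fold change (x axis) with 95% intervals for tested pathway genes outside the members, in 4 lists, with symbols for most of those named in the text. Blue genes were called lower, red higher and grey not called. In the list of ATF4 and CHOP targets, Ero1a (-1.43) lies lowest and Bbc3 (0.66) highest.

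Some values of the libraries bear on all of these results. Prkcz was 880, 904 and 954 in vehicle and 287, 265 and 290 in treated libraries, and Prkci went from 3603, 3526 and 3430 to 2869, 3105 and 3089, so neither gene was at 0. These values cover the whole gene and not the floxed exons alone. Total reads per library were between 15804709 and 26957612. The colon epithelial markers were present throughout, with summed levels of 11568 to 11891 RPM (reads scaled to library depth) in vehicle and 14707 to 15725 in treated libraries. Paneth and ileal markers summed to between 10.6 and 18.1 RPM in vehicle and to 11.8 in 4-OH-Tamoxifen replicate 1, but to 62.4 and 51.9 in replicates 2 and 3, where 7 of the 8 genes were higher than in every other library. Smooth muscle markers were at 3.22 and 8.18 in the same libraries and at most 0.727 elsewhere (5 of 6 genes), fibroblast markers at 10.6 in replicate 3 and at most 3.58 elsewhere, and immune markers at 18.4 in replicate 2 and at most 11.3 elsewhere. Gene by gene, 4 of 7 fibroblast and 3 of 8 immune genes had more reads in each of these 2 replicates than in every other library. In replicate 2 the 4 fibroblast genes had few reads (Col1a2 3, Col3a1 6, Dcn 2 and Lum 1). The fibroblast sum of replicate 2, 2.20 RPM, was within the vehicle range of 2.02 to 3.58. Igha had 135 and 40 reads in replicates 2 and 3 and Col3a1 6 and 100, against 0 reads of either gene in the vehicle libraries. Endothelial markers were between 1.76 and 2.97 and neural markers between 1.45 and 2.39 in all libraries. Against vehicle, 4-OH-Tamoxifen replicate 1 alone, whose Paneth and ileal sum was within the vehicle range, gave a median of -0.69 for the members, with 36 of the 37 members called lower. That fit takes its spread from the vehicle libraries alone, and the part of the other tissues' transcripts in the members' values was not tested. All 10 proliferation markers listed were also lower in treated libraries (median -0.69, from -1.02 for Mki67 to -0.46 for Pcna), and their part in the members' values was not tested.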

How the data were processed

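RNA of 6 organoid libraries was analysed from the deposited normalized counts, a signal that the authors made by dividing the reads counted on each gene by a size factor for the library. The submitters' processing notes list STAR, DESeq2 and the build GRCm39 (mm39), while the annotation and counting tool are not given in the sources used here. Values are not corrected for gene length. Whole reads were recovered from these steps (100% of values came out whole, with a tolerance of 0.1 reads), and the size factors equal DESeq2's median of ratios. Depth was 15804709 to 26957612 reads.

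Groups came from the sample titles. Log2(normalized count + 1) was compared with limma-trend (limma 3.58.1, R 4.3.3) over all 13210 genes whose mean was 10 or more. P-values were adjusted by Benjamini-Hochberg, with calls under 0.05. Errors are SE of the fit. Folds are on the log2(value + 1) scale and understate changes of low genes. Members and lists were chosen with earlier results of these data known. Members with a called log2 fold change of at least 1 in size, Atf4 and the 4 kinases were given in every library, and from each other list the 3 called genes with the largest change were named, except that some items are not reported here. Symbols missing from the table were matched through RefSeq synonyms. Alternatives were pseudocounts of 0.1 and 10, other filters, TMM, quantile normalization, a replicate block, leaving out libraries, and on the whole reads DESeq2 1.42.0 and edgeR's quasi-likelihood test (4.0.16). Motifs were searched in RefSeq promoter windows of GRCm38.p6, another build than the authors'. There were 4 symbols on more than 1 row, which were kept apart. Libraries of a group differed by 3.49 to 6.44 times counting variance, so none is a copy.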

Additional observations from a re-analysis of the deposited data

How the results depend on the processing

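The number of members called lower was 36 or 37 in all 16 alternatives, each of them among the 37 of the report (36 where Eif2ak4 lost its call or, with a minimum mean of 50, Fgf21 was not tested). The genes changed over the whole table numbered 5780 with edgeR, 5208 with DESeq2 and 5637 with the replicate block, and both count tests and the replicate block gave 37 members lower. Same-numbered libraries did not deviate together (correlations of -0.0074, 0.0303 and -0.0202 after group means were removed), and 2 of 6 libraries correlated best with their own number, so the numbers were not taken as pairs.

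With 4-OH-Tamoxifen replicate 1 as the only treated library, a fit in which that library is assumed to vary like the vehicle libraries, 3569 genes changed, 1 member was higher, and the arm medians were -0.54 (transcription factors), -0.67 (effectors), -1.08 (one-carbon enzymes), -0.70 (transporters) and 0.10 (eIF2 arm). Quantile normalization gave -1.12 for the one-carbon enzymes and -0.81 for the transporters. When each library was left out in turn, the genes changed numbered 4939 to 5630, and the medians were -0.45 to -0.27 for transcription factors, -0.65 to -0.54 for effectors, -1.08 to -1.004 for synthesis, -1.11 to -1.03 for one-carbon enzymes, -0.77 to -0.71 for transporters and -0.000775 to 0.054 for the eIF2 arm, whose sign turned without 4-OH-Tamoxifen replicate 1. Members higher numbered 2 to 3, and the other lists gave 4 genes changed (eIF2 and eIF2B), 14 to 17 (enzymes), 4 to 7 (transporters) and 20 to 21 (ATF4 and CHOP targets). The cause was not tested.

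Over 703 values for single members, 689 kept direction and side of the threshold, 5 lost the threshold (Eif2ak4 in 4 and Eif2ak3 in 1), 1 gained it (Nupr1) and 8 turned direction, all in members not called. These were Cebpb without vehicle replicate 1 (0.12) or 4-OH-Tamoxifen replicate 1 (0.13), Nupr1 with 4-OH-Tamoxifen replicate 1 alone (-0.022), Sesn2 without vehicle replicate 1 (0.0025) or with 4-OH-Tamoxifen replicate 1 alone (0.024), Eif2ak1 without vehicle replicate 3 (-0.0082) or 4-OH-Tamoxifen replicate 1 (-0.039), and Eif2ak2 without the latter (-0.000775). Over the libraries left out in turn, these members ranged from -0.38 to 0.13 (Cebpb), -0.053 to 0.0025 (Sesn2), -0.039 to 0.054 (Eif2ak1) and -0.000775 to 0.0401 (Eif2ak2). Of 191 values for genes of the other lists, 187 kept direction and side, and 4, of Amt, lost the threshold. Among called members, values moved by over 1.5 times for Fgf21 with a pseudocount of 10 (-1.34) and, with 4-OH-Tamoxifen replicate 1 alone, for Atf3 (-0.54), Cbs (-0.43), Eif2ak3 (0.15) and Eif2ak4 (-0.14). With a minimum mean of 50, Fgf21 and Slc43a1 gave no value. Depth limits Fgf21 most, with 3 to 8 reads in each treated library, which covers counting error only.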
